A study of Mus musculus with 9 samples.

Results

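Type I and type II keratins, the intermediate filament genes of epithelial cells, were followed through 9 RNA libraries of mouse skin. The members are the 54 genes of 49585 in the deposited tables whose symbol is Krt followed by a number, with or without an a or b. They comprise 28 type I and 26 type II genes. The libraries fall into 3 groups of 3. The first carries the label IL-6 KO, for mice without the cytokine interleukin-6. The second is from BALB/c and the third from C57BL/6 mice, inbred strains that are both labelled wild type. All mice came at 4 to 5 weeks of age from 1 supplier, rested for 2 weeks and were 6 weeks old at the start. All were shaved on day 0, were left untreated for 7 days, and their skin was taken on day 8. The protocol names 6 IL-6 KO mice and 3 of each strain. No label says which mouse gave which library, and the spread behind each p-value may therefore be partly technical.

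A type I and a type II keratin pair to make a filament, and each epithelial layer uses its own pairs. In the epidermis Krt5 and Krt14 form the filaments of dividing basal cells, and Krt1 and Krt10 replace them in the layers above. In the hair follicle the outer root sheath and the companion layer surround the inner root sheath, which moulds the hair shaft. Keratins of the inner root sheath and of the shaft are known as products of follicles that are growing a hair. By these known sites the members were placed as epidermal (8 genes), companion and outer root sheath (8), inner root sheath (8), hair shaft (15) and other epithelia (14), with 1 gene, Krt88, not placed.

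The depth was 3843953, 4476346 and 4414818 exon reads in libraries labelled IL-6 KO, from 6115739 to 6242332 in BALB/c and from 6083876 to 6882193 in C57BL/6. Levels are given as CPM, read counts scaled to a common library size, and levels of different genes are compared only per kb of exon. Fold changes are log2 values ± SE from edgeR's quasi-likelihood test, and a gene is called, or said to rise or fall, at a Benjamini-Hochberg adjusted p under 0.05 over 14415 genes. Il6 itself had 6, 24 and 1 reads in libraries labelled IL-6 KO, 0, 2 and 0 in BALB/c and 2, 1 and 0 in C57BL/6. These reads per gene do not show which exon they come from, but they run against the label, and each direction given below for these libraries rests on it. Their tables were also written in another format than the other 6, and the format and the group cannot be told apart. All 12 keratinocyte markers (Cdh1, Epcam and others) were above 0 in each library, with summed levels of 8726, 10031 and 7615 CPM in libraries labelled IL-6 KO, 8468, 8507 and 9879 in BALB/c and 8841, 10761 and 6599 in C57BL/6. In bulk skin, fewer cells of a type and less RNA per cell cannot be told apart.

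Keratins took 6.65, 4.67 and 5.81% of exon reads in libraries labelled IL-6 KO, 2.15, 2.06 and 2.46% in BALB/c and 1.87, 2.79 and 1.57% in C57BL/6. The inner root sheath members alone took 3.51, 1.02 and 2.72% in libraries labelled IL-6 KO and at most 0.0345% in any other library. Hair shaft members took 1.92, 0.411 and 1.59% in libraries labelled IL-6 KO, against at most 0.0116% elsewhere. For epidermal members the shares were 0.722, 2.69 and 1.00% in libraries labelled IL-6 KO, 1.91, 1.87 and 2.19% in BALB/c and 1.53, 2.24 and 1.32% in C57BL/6. Inner root sheath genes held 52.8% of the keratin reads of replicate 1 labelled IL-6 KO and 46.9% of those of replicate 3, and hair shaft genes 28.9% and 27.4%. In replicate 2 these shares were 21.8% and 8.80%, and epidermal genes held 57.5%.

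**Figure D1:**
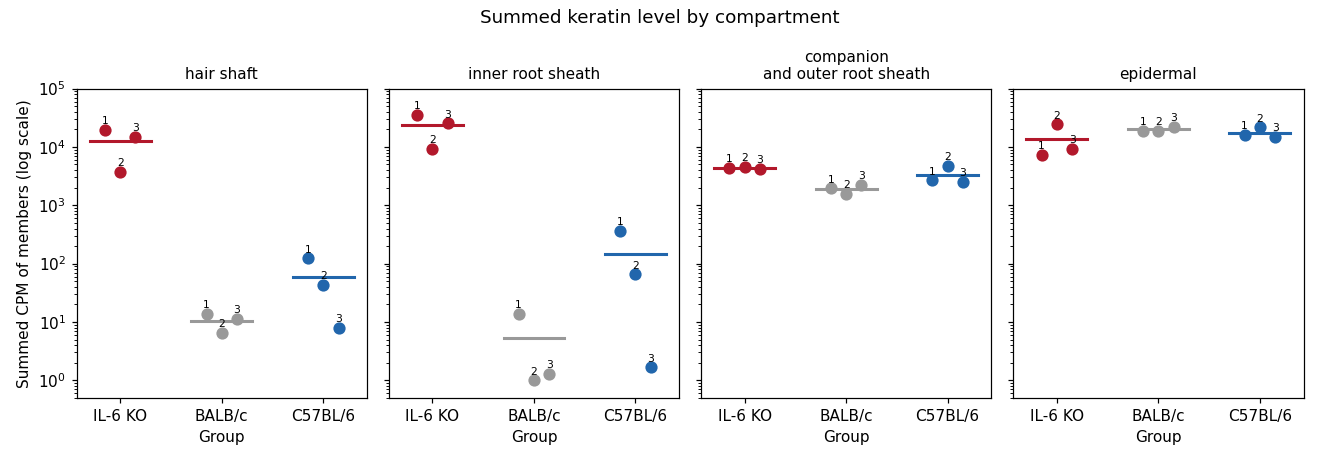
Summed CPM (log axis) of the keratins of 4 compartments, 1 point per library with its replicate number, and the group mean as a bar. The 3 hair shaft sums labelled IL-6 KO run from 3744 to 19553 CPM, against at most 13.9 in BALB/c and 123 in C57BL/6, while the epidermal sums of the 3 groups overlap.

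Against C57BL/6, 30 keratins rose and 3 fell in libraries labelled IL-6 KO, 12 were not called, and 9 of the 54 were too rare to be tested. Over all 14415 genes tested 35.2% were called, 19.2% higher and 16.0% lower. Of the calls over all genes 54.6% were higher, against 67.8% when libraries were scaled by size alone, which moved the median log2 fold change by 0.14. Of the 45 keratins tested, 19 passed the filter on low counts only through libraries labelled IL-6 KO. Most of these could hardly go uncalled as higher, but Krt20, also among them, was not called. Both types took part, with 16 of 24 type I and 14 of 21 type II genes higher. In 33 of the 54 genes all libraries labelled IL-6 KO lay above all of C57BL/6 and in 4 below. The 54 include the 9 not tested, whereas the shares over the 14415 genes tested were 24.6% and 23.0%. Without replicate 2 of these libraries, edgeR calls numbered 32 higher and 6 lower, over shares of 24.3% and 21.8% of all genes.

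The promoters of these genes are shown first. The inner root sheath genes of each type and the type I hair shaft genes follow each other in the chromosomal order of members. All of them rose over C57BL/6. RefSeq entries (GRCm38.p6, 250 bases before to 50 after the start) were at hand for 36 members, of which 34 begin at or near the start of the gene in the deposited tables. The 250 bases before the start are given for inner root sheath genes of each type (Krt25 and Krt71), for 3 type I hair shaft genes (Krt34, Krt31 and Krt33b), and for the epidermal Krt10 and Krt5. Capitals mark TATAAA, the core promoter box, and CTTTGAA, the motif of Lef1, a Wnt pathway factor of hair follicles, on either strand.
Krt25 (chr11:99322952-99323201, minus strand): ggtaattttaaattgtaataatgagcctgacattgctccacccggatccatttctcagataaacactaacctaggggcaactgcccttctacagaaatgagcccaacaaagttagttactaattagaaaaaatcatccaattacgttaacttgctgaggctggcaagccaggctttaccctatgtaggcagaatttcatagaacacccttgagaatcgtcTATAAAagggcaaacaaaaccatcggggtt
Krt71 (chr15:101743098-101743347, minus strand): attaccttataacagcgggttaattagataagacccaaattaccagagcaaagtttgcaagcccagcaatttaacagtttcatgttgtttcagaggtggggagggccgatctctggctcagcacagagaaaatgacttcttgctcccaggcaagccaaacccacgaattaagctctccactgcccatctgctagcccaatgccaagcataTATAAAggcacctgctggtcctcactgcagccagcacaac
Krt34 (chr11:100041555-100041804, minus strand): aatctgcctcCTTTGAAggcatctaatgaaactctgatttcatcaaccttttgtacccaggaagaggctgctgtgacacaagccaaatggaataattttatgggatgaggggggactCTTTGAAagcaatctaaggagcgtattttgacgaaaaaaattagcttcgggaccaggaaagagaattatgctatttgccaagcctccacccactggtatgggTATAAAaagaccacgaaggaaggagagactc
Krt31 (chr11:100050552-100050801, minus strand): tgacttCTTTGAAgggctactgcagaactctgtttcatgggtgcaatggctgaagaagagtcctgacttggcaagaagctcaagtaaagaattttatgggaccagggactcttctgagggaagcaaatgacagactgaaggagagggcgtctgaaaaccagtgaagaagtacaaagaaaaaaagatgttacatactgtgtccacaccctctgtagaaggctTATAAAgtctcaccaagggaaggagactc
Krt33b (chr11:100029869-100030118, minus strand): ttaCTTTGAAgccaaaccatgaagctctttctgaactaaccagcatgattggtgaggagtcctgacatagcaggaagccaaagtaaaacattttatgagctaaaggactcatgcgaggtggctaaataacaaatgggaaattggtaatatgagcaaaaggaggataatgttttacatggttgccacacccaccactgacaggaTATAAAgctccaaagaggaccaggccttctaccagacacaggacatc
Krt10 (chr11:99389365-99389614, minus strand): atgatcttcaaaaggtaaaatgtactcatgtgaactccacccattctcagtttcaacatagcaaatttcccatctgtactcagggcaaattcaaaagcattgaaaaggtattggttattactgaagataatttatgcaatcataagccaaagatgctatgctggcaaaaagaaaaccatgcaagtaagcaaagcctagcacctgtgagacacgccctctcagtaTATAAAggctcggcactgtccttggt
Krt5 (chr15:101712906-101713155, minus strand): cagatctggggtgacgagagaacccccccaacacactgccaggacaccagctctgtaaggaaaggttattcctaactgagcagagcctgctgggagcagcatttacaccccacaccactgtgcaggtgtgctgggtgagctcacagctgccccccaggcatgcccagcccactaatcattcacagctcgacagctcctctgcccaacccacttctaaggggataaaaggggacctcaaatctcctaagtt

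TATAAA lay in 7 of 7 inner root sheath promoters, 6 of 9 hair shaft promoters, 1 of 3 of the companion and outer root sheath and 1 of 6 epidermal ones (Krt10), against 13.6% of 32851 promoters of the same length. Over the 34 keratin promoters it was in 19 (55.9%), among them Krt8, Krt12, Krt20 and Krt76 of other epithelia. In Krt12, Krt20 and Krt76 it began 29 bases before the start. In Krt8 it began 3 and 1 bases before the start, and in Krt42, of the companion and outer root sheath, 19 bases after it. Only the exact string was scored, and variants such as tatataag in Krt2 were not. On the gene strand, between 40 and 16 bases before the start, it was in 5 of 7 inner root sheath and 4 of 9 hair shaft promoters, against 1.99% of all, a window chosen after the positions were seen. In Krt25, Krt26, Krt28 and Krt73 it began 30 bases before the start, and in Krt10 26 bases before it. CTTTGAA lay in 5 of 9 hair shaft promoters (Krt31, Krt32, Krt33b, Krt34 and Krt39) and 1 of 7 of the inner root sheath (Krt28), and in none of the 6 epidermal ones, against 5.14% of all promoters. The Krt28 match began 14 bases after the start. In Krt31, Krt32, Krt33b and Krt34 a copy began between 240 and 247 bases before the start, and these genes lie in 1 gene cluster, so their matches cannot be counted as independent. TGANTCA, an AP-1 type motif, was in 1 keratin promoter, that of Krt13, against 7.81% of all promoters. A match is a string of letters and shows no binding.

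All 8 inner root sheath keratins rose in libraries labelled IL-6 KO. They pair as the type I genes Krt25 to Krt28 with the type II genes Krt71 to Krt74. Of the 8, 4 passed the filter on low counts only through libraries labelled IL-6 KO. Krt71 (chromosome 15, 101733950 to 101743109, GRCm38), mutated in caracul mice with wavy coats, stood at 13927, 3915 and 10632 CPM in libraries labelled IL-6 KO, 3.82, 0.166 and 0 in BALB/c and 155, 26.2 and 0.186 in C57BL/6. Krt25 (chromosome 11, 99315516 to 99322951), a type I partner, had 7577, 2023 and 6173 CPM in libraries labelled IL-6 KO, 3.98, 0.166 and 0.324 in BALB/c and 81.2, 16.9 and 0.186 in C57BL/6. In both genes even the lowest library labelled IL-6 KO, replicate 2, was about as far above the highest C57BL/6 library (25.2-fold and 24.9-fold). The log2 fold change over C57BL/6 was 7.29 ± 1.68 (adjusted p = 0.00931) for Krt71 and 7.32 ± 1.52 (adjusted p = 0.00574) for Krt25.

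Krt27, another type I gene of the sheath, stood at 5972, 1652 and 3974 CPM in libraries labelled IL-6 KO, 0.478, 0 and 0 in BALB/c and 66.9, 9.10 and 0.186 in C57BL/6. Krt72 and Krt73 are type II keratins of the cuticle of the sheath in human hair. Krt72 had 2822, 549 and 1421 CPM in libraries labelled IL-6 KO, 0.159, 0 and 0 in BALB/c and 18.6, 4.77 and 0.186 in C57BL/6. Krt73 had 1876, 414 and 1379.6 CPM in libraries labelled IL-6 KO, 3.18, 0 and 0.162 in BALB/c and 14.9, 3.73 and 0 in C57BL/6. No library of the 3 groups broke the separation in these genes. Krt28 stood at 1958, 376 and 1059.5 CPM in libraries labelled IL-6 KO, 1.75, 0.665 and 0.811 in BALB/c and 13.4, 2.09 and 0.928 in C57BL/6. For Krt26 the levels were 1524, 361 and 869 CPM in libraries labelled IL-6 KO, 0.478, 0 and 0 in BALB/c and 14.5, 2.39 and 0 in C57BL/6. Krt74, the rarest of the 8, had 22.7, 10.2 and 19.1 CPM in libraries labelled IL-6 KO, 0 in each BALB/c library and 0.307, 0.149 and 0 in C57BL/6. Krt74 was the exception in another way, with 401 intron reads beside 226 exon reads in libraries labelled IL-6 KO, while the other 7 genes had from 1.87 to 8.15 intron reads per 100 exon reads.

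The log2 fold changes over C57BL/6 of the 7 genes other than Krt74 ran from 7.24 (Krt27) to 7.67 (Krt28, adjusted p = 0.000759). Krt74 had 3 exon reads in all of C57BL/6, which gives a ratio of 105-fold (95% counting interval 35.3 to 511). The interval covers counting error only. Per kb, Krt71 was the highest of the 8 in libraries labelled IL-6 KO (4344 ± 2335 CPM per kb, SD, n = 3), before Krt25 (2643 ± 1452) and Krt27 (2494 ± 1395), which did not differ beyond their spread. Krt71 made up from 35.5 to 38.3% of the summed level per kb of the compartment in each of the 3 libraries, although the sum itself differed by several fold. The summed type I level per kb was 1.07, 1.07 and 1.05 times the type II level in these libraries, and 1.10 and 1.00 times in C57BL/6 replicates 1 and 2, where each type had at least 100 reads.

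All 15 hair shaft keratins rose over C57BL/6 as well. The shaft has type I (Krt31 to Krt36, Krt39, Krt40) and type II (Krt81 to Krt84, Krt86, Krt87) genes, rich in cysteine for cross-linking. Krt85, a further type II gene of the shaft, is not among the members, so the type II sums leave it out. Of the 15, 12 passed the filter on low counts only through libraries labelled IL-6 KO. In C57BL/6 the hair shaft genes had 799, 289 and 43 reads in all, so their fold changes rest on few reads.

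Krt86, a type II gene of the cortex mutated in human monilethrix, stood at 2912, 581 and 2036 CPM in libraries labelled IL-6 KO, 0.318, 0 and 0 in BALB/c and 14.8, 2.24 and 0 in C57BL/6 (log2 fold change 8.31 ± 1.22, adjusted p = 0.00123 over C57BL/6). Krt34 (chromosome 11, 100037347 to 100041554), a type I gene of the cortex, had 2507, 467 and 1774 CPM in libraries labelled IL-6 KO, 0, 0 and 0.162 in BALB/c and 16.8, 2.54 and 0 in C57BL/6 (log2 fold change 7.91 ± 1.21, adjusted p = 0.00146). In both, BALB/c lay at or near 0 and C57BL/6 replicate 1 held most of the reads of its group. Krt81 had 2440.3, 463 and 1929 CPM in libraries labelled IL-6 KO, 0 in each BALB/c library and 15.5, 2.39 and 0 in C57BL/6 (log2 fold change 8.05 ± 1.34, adjusted p = 0.00376). Krt83, like Krt81 a monilethrix gene in humans, had 2544, 429 and 1821 CPM in libraries labelled IL-6 KO, 0.159, 0.166 and 0 in BALB/c and 16.0, 0.895 and 0.371 in C57BL/6. Krt87 stood at 1695, 332 and 1462 CPM in libraries labelled IL-6 KO, 0 in each BALB/c library and 9.84, 0.597 and 0.186 in C57BL/6. The 5 genes had the same order of libraries within the labelled group, replicate 1 first and replicate 2 last.

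Among type I genes, Krt33a stood at 2610.1, 513 and 2026 CPM in libraries labelled IL-6 KO, 0.478, 0 and 0.487 in BALB/c and 14.6, 2.83 and 0.186 in C57BL/6. Its neighbour Krt33b had 1643, 290.1 and 1198 CPM in libraries labelled IL-6 KO, 0 in each BALB/c library and 7.07, 1.19 and 0 in C57BL/6, and the largest fold of the 15 over C57BL/6 (log2 fold change 8.51 ± 1.19, adjusted p = 0.00189). Krt31 had 1319.9, 266 and 1129.6 CPM in libraries labelled IL-6 KO, 0.318, 0 and 0.162 in BALB/c and 7.69, 1.79 and 0 in C57BL/6. Krt35, an early gene of the matrix and cortex in human hair, stood at 1075, 209.7 and 905 CPM in libraries labelled IL-6 KO, 2.71, 0 and 0.324 in BALB/c and 6.00, 1.94 and 0.371 in C57BL/6 (log2 fold change 7.99 ± 1.04, adjusted p = 0.000769). None of these 4 genes overlapped between the labelled group and either strain.

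The cuticle and late genes were less abundant. Krt82, a cuticle gene, had 175, 41.3 and 151 CPM in libraries labelled IL-6 KO, 0.159, 0 and 0 in BALB/c and 1.38, 0 and 0 in C57BL/6. Krt39 had 76.7, 18.1 and 58.4 CPM in libraries labelled IL-6 KO, 0 in each BALB/c library and 0.615, 0 and 0 in C57BL/6. Krt40 had 60.6, 13.0 and 48.8 CPM in libraries labelled IL-6 KO, 0, 0 and 0.162 in BALB/c and 0.769, 0 and 0 in C57BL/6. In C57BL/6 the exon reads of these 3 genes were all in replicate 1. Krt32, also of the cuticle, was different: it had 276, 64.1 and 208 CPM in libraries labelled IL-6 KO, 4.78, 2.66 and 6.49 in BALB/c and 9.84, 24.0 and 5.94 in C57BL/6. Its fold over C57BL/6 was the smallest of the 15 (log2 fold change 3.76 ± 0.62, adjusted p = 0.00201), and from 52.3 to 72.6% of its reads per group were uniquely mapped, and the fold was 4.51 without C57BL/6 replicate 2. Krt36 and Krt84, which are also made in the filiform papillae of the mouse tongue, remained detectable in BALB/c. Krt36 stood at 84.6, 21.0 and 76.8 CPM in libraries labelled IL-6 KO, 4.30, 3.16 and 2.60 in BALB/c and 0.307, 0.597 and 0.743 in C57BL/6. Krt84 had 135, 34.8 and 85.3 CPM in libraries labelled IL-6 KO, 0.637, 0.499 and 0.811 in BALB/c and 1.69, 2.09 and 0.186 in C57BL/6 (log2 fold change 5.92 ± 0.62, adjusted p = 0.000462).

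Per kb, Krt34 (984 ± 642 CPM per kb, SD, n = 3) and Krt86 (940.2 ± 601) led the hair shaft genes in libraries labelled IL-6 KO. Krt83, Krt81 and Krt33a completed the 5 highest. The SD includes the low level of all 5 in replicate 2, so it cannot rank genes within a library. As a share of the summed level per kb of the compartment, Krt34 lay above Krt83, Krt81 and Krt33a in each of the 3 libraries. The shares of Krt34 and Krt86 overlapped. Of the 5, Krt81 and Krt86 had the smallest part of their reads uniquely mapped in these libraries. The 5 lowest were Krt82, Krt36, Krt84, Krt39 and Krt40, from 30.9 to 58.6 CPM per kb. The summed type I level per kb was 1.04, 1.06 and 1.05 times the type II level in the 3 libraries, and 1.16 times in C57BL/6 replicate 1. Among the genes measured, which leave out Krt85, the types stood near balance in replicate 2 as well. In that library each hair shaft gene was at 0.197 to 0.316 times the mean of replicates 1 and 3.

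A single C57BL/6 library moved the size of these folds. Over C57BL/6 the median log2 fold change was 7.99 for the 15 hair shaft genes and 7.32 for the 8 of the inner root sheath, and without C57BL/6 replicate 1 it was 10.3 and 9.34. All 23 genes stayed called without it, and without each other library in turn. Leaving out IL-6 KO replicate 2 gave 8.43 and 7.70. The lowest library labelled IL-6 KO was from 16.7 to 41.0 times the highest C57BL/6 library in 14 hair shaft genes, 2.67 times in Krt32, and from 24.7 to 33.1 times in the 8 inner root sheath genes. Intron reads can come from unspliced RNA, but their origin was not tested. Those of hair shaft genes numbered 2347, 881 and 2519 in libraries labelled IL-6 KO. They numbered 5 in each BALB/c library and 42, 32 and 11 in C57BL/6. Krt39 had 489 intron reads beside 654 exon reads in libraries labelled IL-6 KO.

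**Figure D2:**
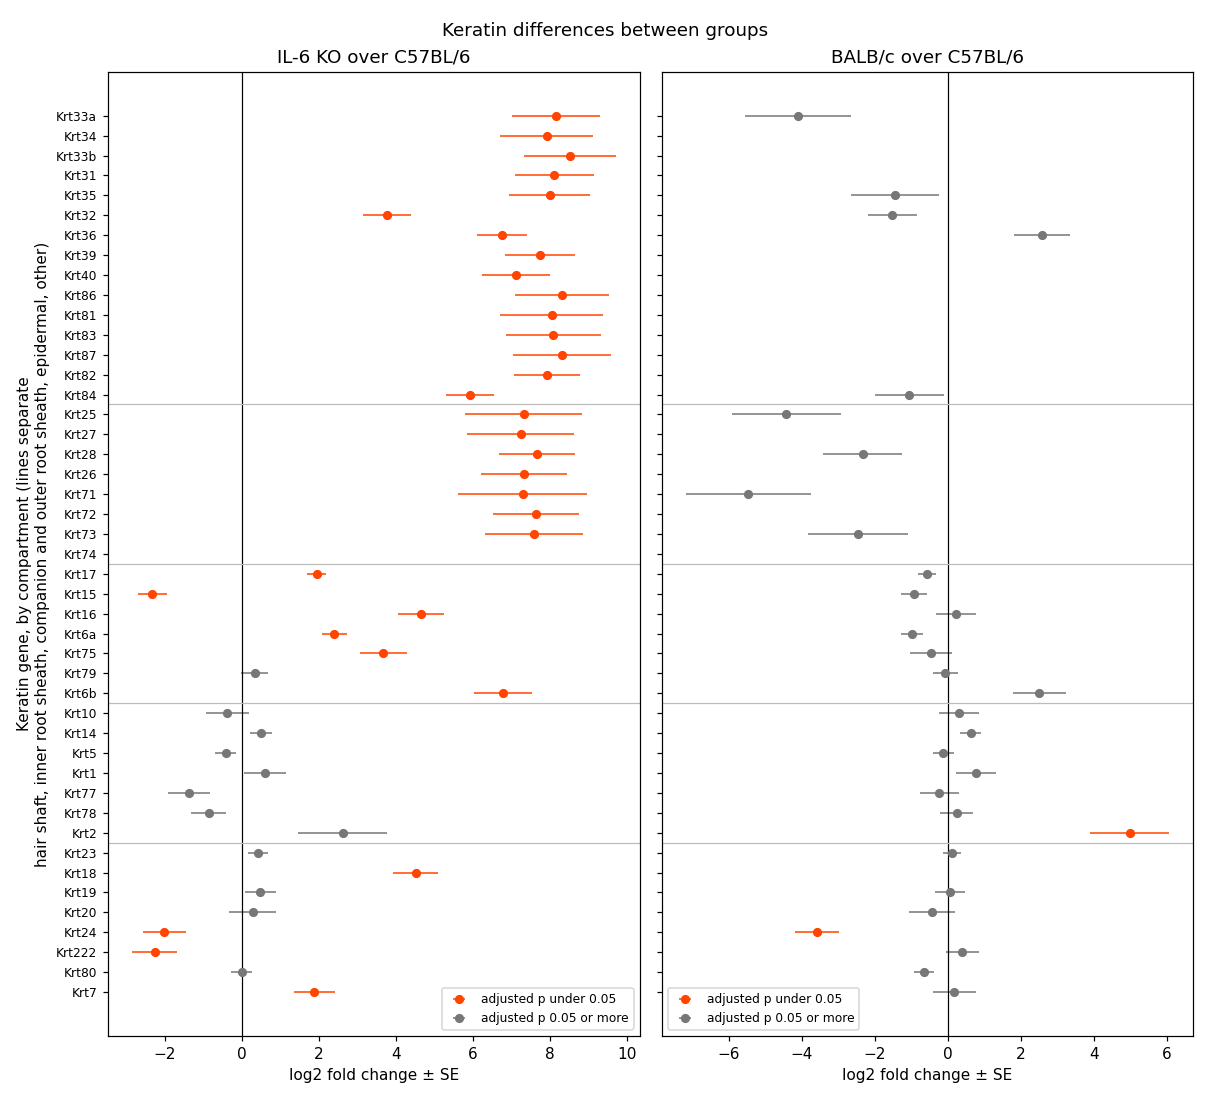
Log2 fold change ± SE (horizontal axis) of the keratins tested, in rows by compartment, for libraries labelled IL-6 KO over C57BL/6 (left) and BALB/c over C57BL/6 (right), in orange where the adjusted p is under 0.05. Genes with 3 reads or fewer in either group are not drawn (1 on the left, 15 on the right). On the left all hair shaft and inner root sheath genes drawn lie to the right of 3, while the epidermal genes other than Krt2 lie nearer 0 and none is called.

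Against BALB/c, 30 keratins rose and 2 fell in libraries labelled IL-6 KO, and 13 were not called. Over all genes 37.3% were called, 19.9% higher and 17.4% lower. In 35 of the 54 genes, tested or not, the labelled group lay wholly above BALB/c and in 3 below. Over the genes tested the shares were 26.7% and 24.0%. This comparison and the one above share libraries labelled IL-6 KO. All 15 hair shaft and 8 inner root sheath genes were higher. Krt71 was at 12.76 ± 2.14 on the log2 scale (adjusted p = 0.00208) and Krt25 at 11.75 ± 1.86 (adjusted p = 0.00162), values that rest on BALB/c replicate 1, without which they were 16.4 and 14.2. Krt36, with reads in each BALB/c library, rose by 4.17 ± 0.51 (adjusted p = 0.000575) and Krt32 by 5.29 ± 0.69 (adjusted p = 0.000749). Genes with 0 BALB/c reads give bounds, taken against a floor of 3 reads over the group. Krt81 was at least 9453-fold higher, Krt87 at least 6852-fold, Krt33b at least 6097-fold, Krt39 at least 300.2-fold and Krt74 at least 104-fold higher. Krt34, with 1 BALB/c read, stood at a ratio of 27729-fold (95% counting interval 4976 to 1095278).

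Regulators of hair keratin genes were set beside the keratins. Of 13 listed, 11 rose in libraries labelled IL-6 KO over C57BL/6 (median log2 fold change 2.65) and 11 over BALB/c. Over all genes 19.2% and 19.9% rose. Lef1 and Shh of this list passed the filter on low counts only through libraries labelled IL-6 KO, which favours a call as higher. Msx2, a homeobox factor of the hair matrix, had 189, 49.1 and 153 CPM in libraries labelled IL-6 KO, 2.55, 2.49 and 2.43 in BALB/c and 4.15, 5.97 and 2.41 in C57BL/6 (log2 fold change 4.93 ± 0.51, adjusted p = 0.000462). Hoxc13, which activates hair keratin genes, had 157, 43.6 and 140.1 CPM in libraries labelled IL-6 KO, 3.50, 1.83 and 2.11 in BALB/c and 5.53, 8.35 and 4.27 in C57BL/6 (log2 fold change 4.21 ± 0.49, adjusted p = 0.000533). Lef1 had 83.6, 16.7 and 75.1 CPM in libraries labelled IL-6 KO, 1.75, 0.665 and 1.46 in BALB/c and 1.38, 1.34 and 2.23 in C57BL/6 (log2 fold change 5.15 ± 0.63, adjusted p = 0.000633). All 3 were lowest in replicate 2 of their group, as the hair keratins were. Msx2 and Hoxc13 were lower in C57BL/6 replicate 1 than in replicate 2, whereas 8 of 8 inner root sheath and 12 of 15 hair shaft keratins were highest in replicate 1. Against C57BL/6 none of the 13 was called in BALB/c by edgeR, and none had an unadjusted p under 0.05. Dlx3 followed (log2 fold change 3.81 ± 0.51, adjusted p = 0.000848).

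Of 15 filament partners measured, 6 rose and 2 fell over C57BL/6, against 19.2% and 16.0% of all genes. Tchh, trichohyalin, which fixes keratin filaments in the inner root sheath, had 24384, 6181 and 15664 CPM in libraries labelled IL-6 KO, 4.14, 3.82 and 3.73 in BALB/c and 288, 54.3 and 2.97 in C57BL/6 (log2 fold change 7.06 ± 1.37, adjusted p = 0.00423). Tchhl1, a related gene, rose too (log2 fold change 6.69 ± 0.78, adjusted p = 0.000533), as did the plakophilin Pkp3 (log2 fold change 1.08 ± 0.22, adjusted p = 0.00502). Tchhl1 passed the filter on low counts only through libraries labelled IL-6 KO, which favours a call as higher. Dst, which anchors basal keratins to hemidesmosomes, fell (log2 fold change -1.54 ± 0.25, adjusted p = 0.00170). Against BALB/c 7 partners rose and 2 fell, beside 19.9% and 17.4% of all genes.

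Markers of some other cell types differed from C57BL/6 as well, where 19.2% of all genes rose and 16.0% fell. Of 9 melanocyte markers, 7 could be tested and all 7 rose over C57BL/6, with summed levels of 951, 113 and 1072 CPM in libraries labelled IL-6 KO, 39.8, 32.8 and 35.0 in BALB/c and 53.5, 42.2 and 37.3 in C57BL/6. Of the 7 tested, Tyr and Trpm1 passed the filter on low counts only through libraries labelled IL-6 KO, which favours a call as higher. Oca2 was at 0 in each BALB/c library and in C57BL/6 replicates 2 and 3, and was at 0 in no library labelled IL-6 KO. All 10 cell division markers rose, with sums of 719, 285 and 709 CPM in libraries labelled IL-6 KO, 110.5, 116 and 132 in BALB/c and 86.9, 95.0 and 68.9 in C57BL/6, and none was at 0. Both sums were lowest, of the 3 libraries labelled IL-6 KO, in replicate 2. Skeletal muscle markers fell in 11 of 12 cases, with sums of 10583, 11014 and 9663 CPM in libraries labelled IL-6 KO, 26229, 56170.2 and 53561 in BALB/c and 63663, 51578 and 90509 in C57BL/6. Of 8 endothelial markers 7 fell. Among 7 sebaceous gland genes tested, Elovl3 rose and Scd3 fell. In immune cells 1 of 7 markers fell (Cd3e), while edgeR called none of 8 adipocyte markers (1 with an unadjusted p under 0.05), none of 8 fibroblast markers (0) and not the 1 of 8 mucosal and glandular markers tested (Amy1). Against BALB/c, melanocyte, cell division and skeletal muscle markers gave the same counts, while 4 adipocyte, 3 endothelial, 2 sebaceous, 1 immune and 1 glandular marker fell and 1 sebaceous marker rose. Over all genes 19.9% rose and 17.4% fell. Adipocyte sums were 1735, 3418 and 1215 CPM in libraries labelled IL-6 KO and 10997, 3235 and 3207 in BALB/c. Amy1 had 6.61, 24.8 and 6.37 CPM against 92.5, 24.4 and 26.3. In both, BALB/c replicate 1 stood highest, and replicate 2 labelled IL-6 KO lay near BALB/c replicates 2 and 3. The part of these other cell types in the keratin results was not tested.

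In the companion layer and outer root sheath, 5 of the 7 genes tested rose over C57BL/6 and 1 fell, against 19.2% and 16.0% of all genes. Krt75 (chromosome 15, 101563345 to 101573904), a type II gene of the companion layer, stood at 1024, 309 and 781 CPM in libraries labelled IL-6 KO, 39.8, 32.1 and 48.7 in BALB/c and 30.4, 28.2 and 108 in C57BL/6 (log2 fold change 3.67 ± 0.61, adjusted p = 0.00206). Its low library in the labelled group was replicate 2, as in the hair shaft, and its fold over C57BL/6 was 4.56 without C57BL/6 replicate 3. Krt17, a type I gene of the outer root sheath that also marks injured epidermis, had 1948, 1074 and 1465 CPM in libraries labelled IL-6 KO, 257, 257 and 268 in BALB/c and 333, 495 and 342 in C57BL/6 (log2 fold change 1.94 ± 0.25, adjusted p = 0.000733).

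Krt6a, Krt6b and Krt16 are companion layer and outer root sheath genes that epidermis also makes after wounding. Krt6a had 659, 946 and 703 CPM in libraries labelled IL-6 KO, 75.6, 59.2 and 85.6 in BALB/c and 111, 225 and 99.3 in C57BL/6 (log2 fold change 2.40 ± 0.32, adjusted p = 0.000888). Krt6b had 95.5, 438 and 288 CPM in libraries labelled IL-6 KO, 10.3, 17.6 and 14.6 in BALB/c and 2.61, 4.32 and 0.186 in C57BL/6 (log2 fold change 6.78 ± 0.75, adjusted p = 0.000499). Krt16, their type I partner, stood at 182, 627 and 290.4 CPM in libraries labelled IL-6 KO, 11.1, 20.3 and 19.5 in BALB/c and 12.8, 24.3 and 6.31 in C57BL/6 (log2 fold change 4.65 ± 0.59, adjusted p = 0.000695, and 4.01 without IL-6 KO replicate 2). Unlike Krt17 and Krt75, these 3 were highest in replicate 2 of the labelled group. Between 74.3 and 88.1% of their reads per group were uniquely mapped, and each call held on unique reads. The fold of Krt6b over C57BL/6 was 7.51 without C57BL/6 replicate 2.

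Krt15, a type I gene of basal cells and of the follicle bulge where stem cells reside, went the other way. It had 369, 729 and 381 CPM in libraries labelled IL-6 KO, 1348, 989 and 1539 in BALB/c and 1986, 3598 and 1826 in C57BL/6. It fell against C57BL/6 (log2 fold change -2.33 ± 0.37, adjusted p = 0.00174) and against BALB/c (log2 fold change -1.39 ± 0.36, adjusted p = 0.0150), and all 3 groups stood apart without overlap. The call against BALB/c ended without IL-6 KO replicate 1 or 3 (adjusted p = 0.0578 and 0.0650, with 0.000494 to 0.360 over its alternatives). Krt79, a type II gene of the upper follicle and sebaceous duct, had 159.7, 415 and 286 CPM in libraries labelled IL-6 KO, 224, 189 and 239.6 in BALB/c and 203, 323 and 159.9 in C57BL/6, with overlap and no call. Krt42 was too rare to test, at 2.12 CPM or less in each library.

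The balance of types also differed in this compartment. The summed type I level per kb was 2.18, 1.66 and 1.65 times the type II level in libraries labelled IL-6 KO, 5.96, 5.50 and 6.08 times in BALB/c and 8.59, 8.96 and 8.19 times in C57BL/6. The 3 groups did not overlap. Krt17 led the compartment in libraries labelled IL-6 KO (964 ± 282 CPM per kb, SD, n = 3), while Krt15 led in BALB/c (731 ± 158) and C57BL/6 (1398 ± 555). Per kb, Krt15 was at 0.213, 0.217 and 0.198 times Krt14 in libraries labelled IL-6 KO, 0.502, 0.448 and 0.559 times in BALB/c and 1.54, 1.92 and 1.02 times in C57BL/6. Krt16 was at 0.399, 0.955 and 0.595 times Krt6a in libraries labelled IL-6 KO, 0.212, 0.494 and 0.328 times in BALB/c and 0.165, 0.156 and 0.0916 times in C57BL/6. These ratios were not tested.

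**Figure D3:**
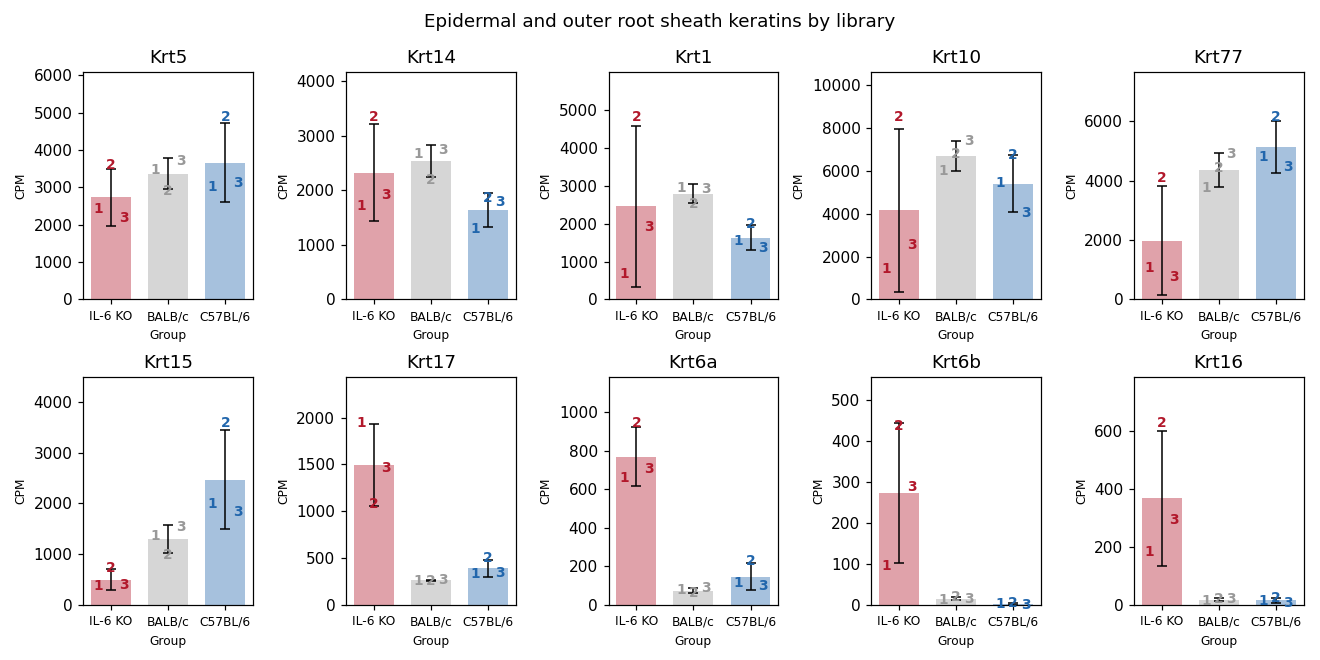
CPM of 10 epidermal and outer root sheath keratins by group, 1 digit per library (its replicate number), with the mean as a bar and the SD as a whisker (n = 3). Replicate 2 labelled IL-6 KO stands above its group in Krt1, Krt10 and Krt77, while Krt15 is lower and Krt17, Krt6a, Krt6b and Krt16 higher in that group than in the strains.

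No epidermal keratin was called in libraries labelled IL-6 KO against C57BL/6 by edgeR, with 7 tested, 2 of them at an unadjusted p under 0.05 (45.9% of all genes), and DESeq2, which called 14.8% of all genes lower, called Krt77. Against BALB/c edgeR again called none, with 2 at an unadjusted p under 0.05 (47.8% of all genes), and DESeq2 (16.0% lower over all genes) called Krt78. Krt5 (chromosome 15, 101707070 to 101712891) stood at 2417, 3596 and 2178 CPM in libraries labelled IL-6 KO, 3469.9, 2899 and 3712 in BALB/c and 2999, 4872 and 3114 in C57BL/6. Krt14, its basal partner, had 1720.2, 3337 and 1919 CPM in libraries labelled IL-6 KO, 2673, 2195 and 2740.0 in BALB/c and 1282, 1866 and 1782 in C57BL/6. The groups overlapped in Krt5 and, for the labelled group, in Krt14. On intron reads Krt5 was called lower against C57BL/6 (-1.44, adjusted p = 0.00588, with 11.4% of all genes lower) and BALB/c (-1.26, adjusted p = 0.0130, with 12.2%). Per kb, Krt14 was at 0.887, 1.16 and 1.10 times Krt5 in libraries labelled IL-6 KO, 0.960, 0.943 and 0.919 times in BALB/c and 0.533, 0.477 and 0.713 times in C57BL/6.

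Suprabasal keratins varied widely within the labelled group. Krt10 (chromosome 11, 99385254 to 99389364) stood at 1434, 8504 and 2553 CPM in libraries labelled IL-6 KO, 5995, 6776 and 7386 in BALB/c and 5443, 6747 and 4047 in C57BL/6. Krt1, its partner, had 665, 4799 and 1907 CPM in libraries labelled IL-6 KO, 2941, 2503 and 2919 in BALB/c and 1533, 1999 and 1350.0 in C57BL/6. In both genes replicate 2 was the highest and replicate 1 the lowest of all 9 libraries. Krt77, a type II gene of suprabasal mouse epidermis, had 1065, 4078 and 767 CPM in libraries labelled IL-6 KO, 3761, 4436 and 4897 in BALB/c and 4800.4, 6123 and 4449 in C57BL/6 (log2 fold change -1.38 ± 0.55, adjusted p = 0.0768 over C57BL/6). Krt78 had 34.9, 159 and 49.0 CPM in libraries labelled IL-6 KO, 178, 165 and 180.0 in BALB/c and 146, 168 and 130.2 in C57BL/6. Replicate 2 was from 3.73 to 4.45 times the mean of replicates 1 and 3 in these 4 genes, 1.57 times in Krt5 and 1.83 times in Krt14.

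Without replicate 2, Krt10 was called lower than in C57BL/6 (-1.44, adjusted p = 0.00871) and BALB/c (-1.75, adjusted p = 0.00367), and Krt77 likewise (-2.49, adjusted p = 0.000270, and -2.25, adjusted p = 0.000378). Of all genes 21.8% were then called lower than in C57BL/6 and 22.5% than in BALB/c. Krt78 was then called lower than in both strains, and Krt1 than in BALB/c alone (-1.12, adjusted p = 0.0494), where its difference from C57BL/6 was -0.34. The adjusted p over all alternatives against C57BL/6 ran from 0.00871 to 1 for Krt10 and from 0.000270 to 0.659 for Krt77. Among the 9 fits that leave out a library, only the one without replicate 2 called Krt10 or Krt77 against either strain, or Krt78 or Krt1 against BALB/c. With replicate 2 kept, Krt77 against C57BL/6 and Krt78 against BALB/c were each called in 3 alternatives, DESeq2 and intron reads among them, and Krt10 and Krt77 against BALB/c on intron reads alone. Krt1 was called against C57BL/6 in none of its 21 alternatives. No label sets replicate 2 apart from the other libraries of its group. Per kb, Krt10 was at 2.49, 2.05 and 1.55 times Krt1 in libraries labelled IL-6 KO, 2.36, 3.13 and 2.93 times in BALB/c and 4.11, 3.90 and 3.47 times in C57BL/6. It was at 0.693, 2.12 and 1.11 times Krt14 in libraries labelled IL-6 KO, 1.87, 2.57 and 2.24 times in BALB/c and 3.53, 3.01 and 1.89 times in C57BL/6. Among keratinocyte markers, loricrin (Lor), of the outermost living layer and named after its values were seen, had 662, 2553 and 830.5 CPM in libraries labelled IL-6 KO, 3764, 3363 and 4091 in BALB/c and 3235, 3306 and 1969.8 in C57BL/6, highest in replicate 2 of the labelled group. Of the 12 keratinocyte markers, 4 were highest in that library (Lor, Itga6, Itgb4 and Col17a1) and 4 were lowest in it (Cdh1, Sfn, Dsp and Ivl). Against C57BL/6, 3 of the 12 rose and 2 fell, shares near the 19.2% and 16.0% of all genes. Sfn rose (log2 fold change 1.69 ± 0.23, adjusted p = 0.000840), Epcam rose (log2 fold change 1.13 ± 0.18, adjusted p = 0.00168) and Ivl, involucrin, rose (log2 fold change 1.41 ± 0.29, adjusted p = 0.00590), whereas the hemidesmosome gene Itgb4 fell (log2 fold change -1.11 ± 0.27, adjusted p = 0.0116).

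Of 11 regulators of epidermal keratin genes, 7 rose over C57BL/6 (median log2 fold change 0.89) and 7 over BALB/c, against 19.2% and 19.9% of all genes. In BALB/c against C57BL/6 edgeR called none of them (1 with an unadjusted p under 0.05). The 4 with the smallest p over C57BL/6 were Tfap2c, an AP-2 factor (log2 fold change 0.89 ± 0.12, adjusted p = 0.000806), Ovol1 (log2 fold change 2.00 ± 0.28, adjusted p = 0.00109), Prdm1 (log2 fold change 1.57 ± 0.27, adjusted p = 0.00255) and Grhl1 (log2 fold change 1.20 ± 0.24, adjusted p = 0.00486). Among 13 other intermediate filament genes, 7 were tested. Of these, 2 rose and 2 fell over C57BL/6, against 19.2% and 16.0% of all genes. Lmnb1 (log2 fold change 2.37 ± 0.35, adjusted p = 0.00127) and Lmnb2 (log2 fold change 0.79 ± 0.26, adjusted p = 0.0419), which encode B-type lamins of the nucleus, rose. Synm (log2 fold change -2.70 ± 0.34, adjusted p = 0.000687) and Des (log2 fold change -2.43 ± 0.36, adjusted p = 0.00121), filament genes of muscle, fell beside the skeletal muscle markers given above.

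Between BALB/c and C57BL/6, edgeR called 1 keratin higher and 1 lower in BALB/c and 43 not, with 3.41% called over all genes, 1.63% higher and 1.78% lower. At an unadjusted p under 0.05 there were 22 of the 45 keratins, against 19.3% of all genes. Of all calls 47.9% were higher, against 58.8% with scaling by library size alone. DESeq2 called 2 higher and 8 lower, over shares of 3.06% and 3.09%. Krt2 (chromosome 15, 101810689 to 101818169), a type II gene of the upper epidermis, had 2.87, 75.8 and 56.6 CPM in BALB/c, against 1.69, 0.895 and 1.67 in C57BL/6 (log2 fold change 4.98 ± 1.09, adjusted p = 0.0433). BALB/c replicate 1 stood beside C57BL/6 and far below the other 2 libraries of its strain, which held most of the difference. The call ended in 6 of 9 fits that leave out a library (all but those without IL-6 KO replicate 1 or 2 or BALB/c replicate 1, with an adjusted p of 0.0719 to 0.133). All alternatives together spanned 0.000243 to 0.163. In libraries labelled IL-6 KO, Krt2 had 2.64, 13.8 and 9.13 CPM, with no call against either strain (adjusted p = 0.104 against C57BL/6). It was called higher than in C57BL/6 in 2 alternatives. These were edgeR without BALB/c replicate 1 (adjusted p = 0.00864) and with only the groups compared in the fit (adjusted p = 0.0193). Krt9, of palm and sole epidermis, had at most 1 read in each library.

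Krt24 was the keratin lower in BALB/c, at 0.478, 0.831 and 0.973 CPM, against 7.38, 8.80 and 12.1 in C57BL/6 (log2 fold change -3.59 ± 0.61, adjusted p = 0.0142). The 2 strains did not overlap. The call ended without any 1 of the BALB/c libraries or C57BL/6 replicate 3 (adjusted p of 0.0593 to 0.0769), and all alternatives together spanned 1.45e-05 to 0.0769. In libraries labelled IL-6 KO it stood at 0.529, 4.68 and 1.49 CPM and was called lower than in C57BL/6 (log2 fold change -2.01 ± 0.55, adjusted p = 0.0194), a call that ended without IL-6 KO replicate 3 or C57BL/6 replicate 3 (adjusted p = 0.0809 and 0.0694, with 0.000984 to 0.162 over its alternatives). Without IL-6 KO replicate 2 this fold was -3.14.

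The follicle keratins of BALB/c were not called against C57BL/6 by edgeR, although 10 of 15 hair shaft and 5 of 8 inner root sheath genes had an unadjusted p under 0.05, against the 19.3% of all genes given above. Inner root sheath genes had 87, 6 and 8 reads in the 3 BALB/c libraries, against 2373, 438 and 9 in C57BL/6. Hair shaft genes had 87, 39 and 69 reads in BALB/c, against 799, 289 and 43 in C57BL/6, and both sums overlapped between the strains. Without Krt32 and Krt36, which held most of the BALB/c reads, the hair shaft sums were 30, 4 and 13 in BALB/c, against 733, 124 and 7 in C57BL/6. Of the 8 keratins that DESeq2 called lower, 2 are of the inner root sheath (Krt27 and Krt72) and 4 of the shaft (Krt34, Krt81, Krt83 and Krt87). Krt36 ran the other way, at 4.30, 3.16 and 2.60 CPM in BALB/c, against 0.307, 0.597 and 0.743 in C57BL/6 (log2 fold change 2.59 ± 0.77, adjusted p = 0.111). DESeq2 gave an adjusted p of 0.00478, and edgeR without IL-6 KO replicate 2, which called 3.34% of all genes higher, gave 0.00376. Krt6b also stood higher in BALB/c without overlap (log2 fold change 2.51 ± 0.73, adjusted p = 0.105, and 3.24 without C57BL/6 replicate 2), while Krt15 and Krt17 stood lower without overlap and without a call. Over all genes the groups did not overlap in 14.6% (BALB/c higher) and 15.6% (BALB/c lower).

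Keratins of other epithelia were mostly rare. Of the 8 tested, 3 (Krt18, Krt7 and Krt20) passed the filter on low counts only through libraries labelled IL-6 KO. This favours a call as higher, though Krt20 was not called. Krt18, the type I keratin of simple epithelia, had 12.4, 4.89 and 6.37 CPM in libraries labelled IL-6 KO, 0.159, 0 and 0 in BALB/c and 0.307, 0.447 and 0.186 in C57BL/6 (log2 fold change 4.51 ± 0.58, adjusted p = 0.000733). Its type II partner Krt8 was too rare to be tested, at 2.64, 1.43 and 4.67 CPM in libraries labelled IL-6 KO, 0.478, 0 and 0.649 in BALB/c and 0.615, 1.04 and 0.557 in C57BL/6. Krt7, of glandular and ductal epithelia, had 2.91, 3.46 and 2.76 CPM in libraries labelled IL-6 KO, 1.11, 0.998 and 0.649 in BALB/c and 0.154, 1.19 and 1.11 in C57BL/6 (log2 fold change 1.88 ± 0.53, adjusted p = 0.0221). The Krt7 call ended without IL-6 KO replicate 1 or 3 (adjusted p = 0.0553 and 0.0569, with 0.0170 to 0.197 over its alternatives). It was also called higher than in BALB/c (log2 fold change 1.70 ± 0.52, adjusted p = 0.0293), a call that ended without any 1 of the 6 libraries compared (adjusted p of 0.0537 to 0.104, with 0.0106 to 0.278 over its alternatives). Krt222, a keratin-like gene, had 1.06, 0.611 and 0.425 CPM in libraries labelled IL-6 KO, 2.07, 6.15 and 5.03 in BALB/c and 4.46, 2.09 and 3.53 in C57BL/6. It fell against C57BL/6 (log2 fold change -2.27 ± 0.58, adjusted p = 0.0152) and BALB/c (log2 fold change -2.66 ± 0.57, adjusted p = 0.00668), and the call against C57BL/6 ended without IL-6 KO replicate 3 (adjusted p = 0.0661, with 0.00643 to 0.113 over its alternatives).

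Krt80 and Krt23 were the members of this class above 20 CPM in any library. Krt80 stood at 301, 269 and 235 CPM in libraries labelled IL-6 KO, 139, 175 and 200.1 in BALB/c and 265, 385 and 161 in C57BL/6. Krt23 had 262, 203 and 201 CPM in libraries labelled IL-6 KO, 174, 173 and 190.1 in BALB/c and 178, 220.0 and 99.5 in C57BL/6. Neither was called in any comparison. Against BALB/c, 1 of 21 alternatives called Krt23 higher, on intron reads (adjusted p = 0.0410), and 2 called Krt80 higher, with only the groups compared in the fit (adjusted p = 0.0286) and without C57BL/6 replicate 3 (adjusted p = 0.0437). Krt19, and Krt20 of Merkel cells, were tested and not called. Krt4, Krt12, Krt13, Krt76 and Krt90 were not tested. Krt76, of the palate, had 0 reads in all 9 libraries, and Krt4 and Krt13, of mucosal epithelia, had 4 reads or fewer in each.

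The members lie in 2 clusters of 27, on chromosome 11 (99232761 to 100269871) and chromosome 15 (101349571 to 102032026), with Krt18 the 1 type I gene on chromosome 15. In the order of members alone, the 4 type I inner root sheath genes are neighbours on chromosome 11 and the 4 of type II on chromosome 15. The 9 type I hair shaft genes also follow each other in this order. On the chromosome they are set apart, as Krt40 ends at 99543158 and Krt33a starts at 100011195. None of the genes beside these runs in the member order was called higher than in C57BL/6 in libraries labelled IL-6 KO. Krt10, beside Krt28, and Krt5, beside Krt71, were not called, nor were Krt2 and Krt23. Krt24, beside Krt25, was called lower, and Krt13 was not tested. Krt2 still lay above C57BL/6 without overlap. The type II hair shaft genes, with Krt88 among them, lie between Krt7, which was called higher, and Krt90, which was not tested. Krt90 had 6.08, 1.43 and 6.16 CPM in libraries labelled IL-6 KO and at most 0.615 in the others.

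**Figure D4:**
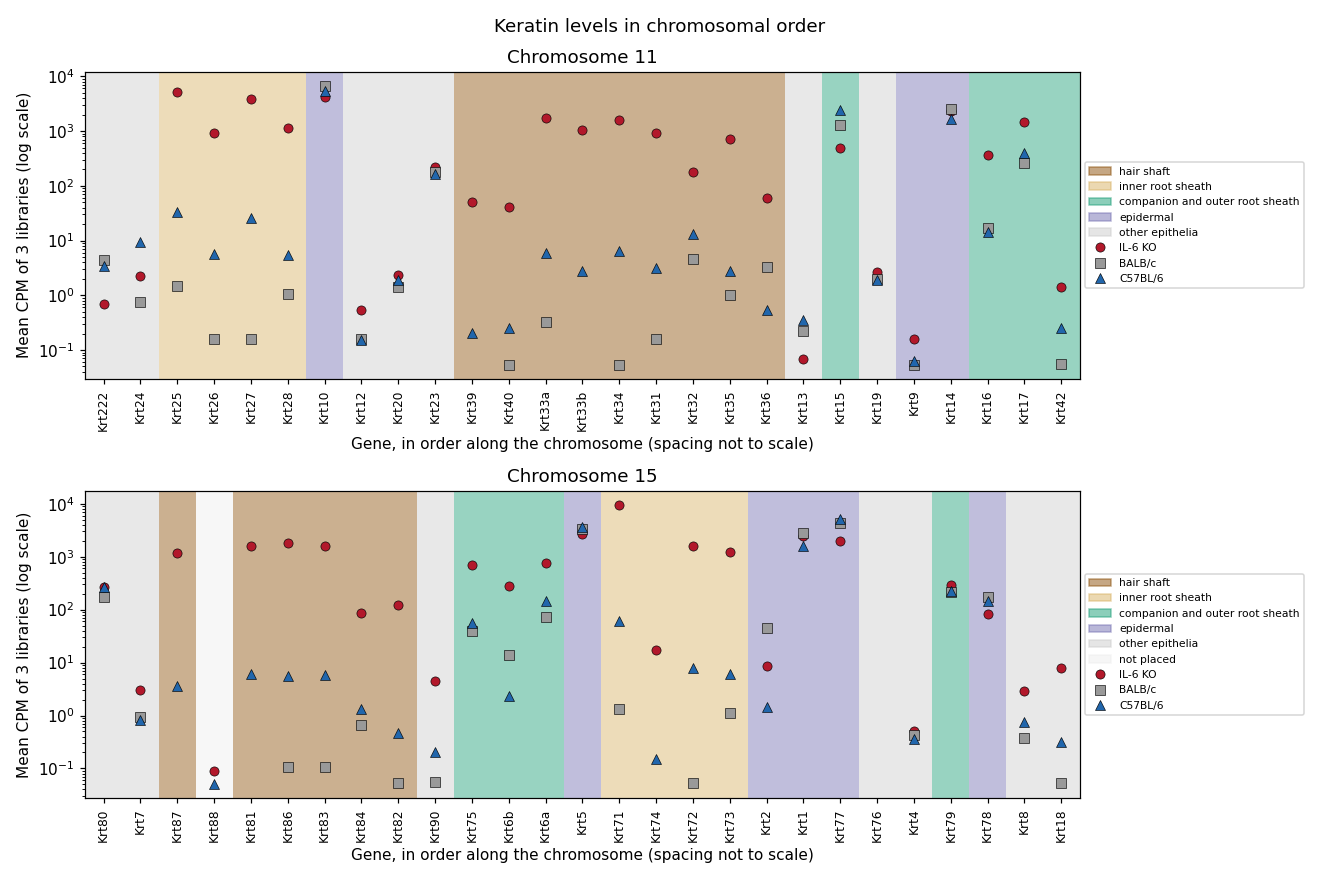
Mean CPM of 3 libraries (log axis) of each keratin in its order along chromosomes 11 and 15, by group, with the compartment as background colour and means of 0 not drawn. Wide gaps between libraries labelled IL-6 KO and the strains run through the hair shaft and inner root sheath genes and stand at others too, such as Krt6b, while Krt10 and Krt5 beside the runs show no wide gap.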

How the data were processed

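Total RNA of skin was sequenced in 9 libraries, with reads mapped to GRCm38 per the submitters' processing notes. The aligner is not given in the sources used here. Each deposited table holds read counts per gene for exons and introns, and RPKM values computed by the authors, per the file headers. RPKM was used only to check the headers. The table of C57BL/6 replicate 1 holds 3 stacked tables, of which the first was used, since the later 2 equal replicates 2 and 3. Libraries of 1 group differed by more than counting error (chi-square per degree of freedom of 4.57 to 50.6).

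Total exon read counts as deposited were fitted for all 9 libraries in 1 model with edgeR 4.0.16 in R 4.3.3 (quasi-likelihood test, TMM scaling with factors of 0.887 to 1.10, filterByExpr with a minimum count of 10 and total of 15, 6 residual degrees of freedom, Benjamini-Hochberg adjustment). The fit was tested on simulated data. DESeq2 1.42.0, other scalings, no filter, unique reads, intron reads and leaving out each library were alternatives, of which intron reads were added after seeing the data. Ratios against 1 to 3 reads and bounds against 0 cover counting error only. Keratins called in any comparison or reaching a mean of 20 CPM in a group were named, and up to 4 called genes per list by p-value. The members, compartments and gene lists were chosen with earlier results of these data known. Promoters are from RefSeq.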

Additional observations from a re-analysis of the deposited data

How the results depend on the processing

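The 30 keratins called higher than in C57BL/6 in libraries labelled IL-6 KO numbered from 29 to 32 when a library was left out and from 24 to 32 under the other settings, and against BALB/c from 30 to 34 and from 25 to 33. The 3 called lower than in C57BL/6 numbered from 1 to 6 without a library and 1 when a log2 fold change of at least 1 was tested. The 2 called lower than in BALB/c numbered from 1 to 6 without a library, 1 with that minimum and 5 on intron reads. In BALB/c against C57BL/6 the 1 higher call became 0 with the minimum or on intron reads and 2 by DESeq2, and ran from 0 to 2 without a library. The 1 lower call became 2 with no filter on low counts, 8 by DESeq2 and 0 with the minimum, and ran from 0 to 2 without a library.

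Replicate numbers did not pair the libraries, since correlations of deviations between same-numbered libraries ran from -0.223 to 0.061. With the replicate number as a block, 0 keratins were higher and 1 lower in BALB/c than in C57BL/6, and Krt2 had an adjusted p of 0.0510. Krt77 against C57BL/6 and Krt78 against BALB/c passed with it (adjusted p = 0.0405 and 0.0453).

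Of 1892 values for 91 named gene comparisons under these settings, 1826 kept direction and side of the threshold, 25 passed it newly, 33 lost it and 8 turned, none of the 8 past the threshold. Without a library, the log2 fold change against C57BL/6 ran from -1.44 to 0.031 for Krt10 and from -0.34 to 1.04 for Krt1 with libraries labelled IL-6 KO on top, and from -0.24 to 0.14 for Krt5 in BALB/c. Against BALB/c it ran from -0.48 to 0.053 for Krt14 and from -1.12 to 0.27 for Krt1. On intron reads, values turned to -0.18 for Krt1 against C57BL/6, -1.30 for Krt36 in BALB/c against C57BL/6 and -0.57 for Krt80 against BALB/c. The cause was not tested. Few reads, in libraries no shallower than those labelled IL-6 KO, limit the precision of folds against the strains for follicle keratins.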
